A study of Mus musculus with 168 samples.

Results

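The constitutive proteasome genes are the genes whose symbols begin with Psma, Psmb, Psmc, Psmd, Psme, Psmf or Psmg and a number. In the tables of 42405 gene symbols, 54 matched. Of these, 4 pseudogenes and the 3 immunoproteasome genes Psmb8, Psmb9 and Psmb10 were left out, which left 47 members. They comprised 14 genes of the core (7 of the α ring and 7 of the β ring), 9 of the base, 8 of the lid, 7 assembly chaperones and 5 genes of activators and their inhibitor. The other 4 were Psma8 and Psmb11, which belong to the proteasomes of testis and thymus, and Psmc3ip and Psme2b, which matched by their letters. Psmc3ip is a partner of Psmc3 known for meiotic recombination and is no subunit, and Psme2b is a retrogene of Psme2.

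The proteasome degrades proteins that carry ubiquitin chains. Its core is a barrel of stacked rings of α and β subunits, and the peptide bonds are cut inside the barrel by the β subunits Psmb5, Psmb6 and Psmb7. The regulatory particle sits on the ends of the barrel: the ATPases of its base unfold the substrate, and the lid, with the deubiquitinase Psmd14, removes the ubiquitin. Other caps (Psme1 with Psme2, Psme3, Psme4) open the barrel without an ATPase, and Psmf1 is known as an inhibitor. Neural stem cells of the adult subventricular zone (SVZ, the niche along the lateral ventricle) rest or cycle, and protein turnover is known to differ between these states.

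The values came from single cells of male C57BL/6 mice, for which no transgene or treatment is named, profiled with Smart-seq2, a full-length single-cell protocol. The SVZ gave 68 cells of the name series ogp and 65 of ogp2, labelled as neural stem cells of 23 months (22 months in the protocol text), from tissue of 4 mice pooled per replicate and sorted as negative for CD45 and O4 and positive for CD133 and GLAST. Astrocytes of 25 months gave 13 cells from the striatum and 4 from the somatosensory cortex, GLAST-positive and CD45- and O4-negative, from pools of 3 to 4 mice. No cell is tied to an animal, so each tissue counts as 1 sample, cells are not replicates, and no difference between tissues could be tested; values over cells are descriptions, and intervals on shares of cells are exact Clopper-Pearson 95% intervals that cover counting error only. Where fewer cells with a transcript and less transcript per cell give the same mean, the share of cells at 1 TPM or more (TPM is transcript abundance scaled to length and to a fixed sum per cell) is printed beside it.

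Cells had 1937 to 7986 genes at 1 TPM or more, with a median of 3479 in SVZ, 3636 in striatum and 3388 in cortex. TPM keeps no read counts, so the depth of each cell is unknown. In 5 ogp cells the deposited columns sum to 66189 to 309864 in place of about 1000000; every cell was rescaled to the same sum. Slc1a3, which encodes GLAST, was at 1 TPM or more in every cell of the 3 tissues, whereas Prom1, which encodes CD133, was so in 14 SVZ cells, 0 of 13 striatum cells and 1 of 4 cortex cells. All 6 microglial markers were under 1 TPM in every astrocyte, and 0 SVZ cells held 3 of them. Oligodendrocyte lineage markers (3 or more of 6) were present in 7 SVZ cells, and neuroblast markers (3 or more of 6) in 4.

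For the motif counts below, the 250 bases before the RefSeq start site were read for 39 members found in the promoter table (RefSeq, GRCm38.p6); Psmb1, Psmb2, Psmb7, Psmc3, Psmd3, Psmd7, Psmg2 and Psma8 have no entry there. The motifs searched, on both strands, were CCGGAA (the core of ETS sites), CCAAT (the box bound by the factor NF-Y) and TGACNNNGC (the core of the antioxidant response element, bound by Nfe2l1, which is known to drive proteasome genes). The 5 sequences shown belong to genes the results turn on: Psma3, the member with the highest level in every tissue, the catalytic Psmb5 and Psmb6, the base ATPase Psmc6, which was low in striatum, and the base subunit Psmd2, which was high in SVZ cells rich in ribosomal protein transcripts. Each is printed 5′ to 3′ in the direction of its gene, and capitals mark the motif matches. On GRCm38.p6 they lie at chr12:70974373-70974622 (plus strand), chr14:54617996-54618245 (minus strand), chr11:70525107-70525356 (plus strand), chr14:45329574-45329823 (plus strand) and chr16:20651402-20651651 (plus strand).
Psma3: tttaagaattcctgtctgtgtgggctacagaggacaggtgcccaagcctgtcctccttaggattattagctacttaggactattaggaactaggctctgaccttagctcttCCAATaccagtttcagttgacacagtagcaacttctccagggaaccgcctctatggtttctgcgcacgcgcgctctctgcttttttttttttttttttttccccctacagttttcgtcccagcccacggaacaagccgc
Psmb5: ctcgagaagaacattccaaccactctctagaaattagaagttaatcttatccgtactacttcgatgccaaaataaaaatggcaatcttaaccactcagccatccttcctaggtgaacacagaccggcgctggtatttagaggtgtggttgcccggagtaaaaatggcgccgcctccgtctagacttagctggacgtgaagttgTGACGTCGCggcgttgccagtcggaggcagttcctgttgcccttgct
Psmb6: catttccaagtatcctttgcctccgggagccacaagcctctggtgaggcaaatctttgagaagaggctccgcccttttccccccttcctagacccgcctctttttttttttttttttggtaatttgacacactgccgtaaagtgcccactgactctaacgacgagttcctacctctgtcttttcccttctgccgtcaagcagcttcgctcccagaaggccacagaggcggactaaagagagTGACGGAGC
Psmc6: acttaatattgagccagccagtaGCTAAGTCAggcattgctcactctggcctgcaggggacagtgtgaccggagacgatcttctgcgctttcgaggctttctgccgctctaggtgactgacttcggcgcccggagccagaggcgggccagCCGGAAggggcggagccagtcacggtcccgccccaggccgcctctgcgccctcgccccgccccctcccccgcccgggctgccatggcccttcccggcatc
Psmd2: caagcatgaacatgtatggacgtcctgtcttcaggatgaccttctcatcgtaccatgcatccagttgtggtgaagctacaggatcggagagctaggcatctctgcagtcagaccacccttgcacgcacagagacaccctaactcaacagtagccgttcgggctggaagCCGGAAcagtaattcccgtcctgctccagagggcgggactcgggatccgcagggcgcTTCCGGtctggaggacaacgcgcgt

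CCGGAA was found before 17 of the 39 members (43.6%), against 12.2% of 27025 promoters of the same length in the table and 25.0% of the 6483 whose genes had a mean of 10 TPM or more in SVZ cells. Among the members, 10 of 14 base and lid genes held it, 4 of 5 ATPases included, against 1 of 11 core genes (Psma5). Psmd2 holds it on both strands, 77 to 82 and 20 to 25 bases before the start. CCAAT was found before 14 members (35.9%), near the 38.5% of expressed genes, and 5 of these 14 are α ring genes. TGACNNNGC was found before 5 members (12.8%), near the 11.9% of expressed genes: Psmb5, Psmb6, Psmc6, Psmd12 and Psmd9. In Psmb5 it ends 39 bases before the start and in Psmb6 it reaches the base next to it, while in Psmc6 it lies on the opposite strand 219 to 227 bases away. Distances are counted to the RefSeq start. By the GENCODE positions given below, the genes Psma3, Psmb5 and Psmc6 begin inside the windows printed for them. These matches are letters in a window; the data hold no binding measurement, and the motif shares were not tested.

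In SVZ cells the levels followed the parts of the complex. The mean over cells ran from 180 to 514 TPM in the core genes (median of the 14 genes 320.2), from 81.8 to 210 TPM in the base (median 145), from 81.3 to 190 TPM in the lid (median 151), from 29 to 107.8 TPM in the chaperones (median 56.8), and from 12.6 to 146 TPM in the activators and the inhibitor (median 42.97). TPM is scaled by transcript length, so these levels can be set side by side between genes. The share of cells at 1 TPM or more had class medians of 69.2% for the core, 51.1% for the base, 51.9% for the lid, 30.1% for the chaperones and 31.6% for the activators and inhibitor. Across the 43 genes of these classes, Spearman's rho between mean level and share of cells was 0.90, a description over genes that share the same cells. Summed per cell, the 14 core genes took a median of 0.419% of TPM and the 17 base and lid genes 0.223%.

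**Figure D1:**
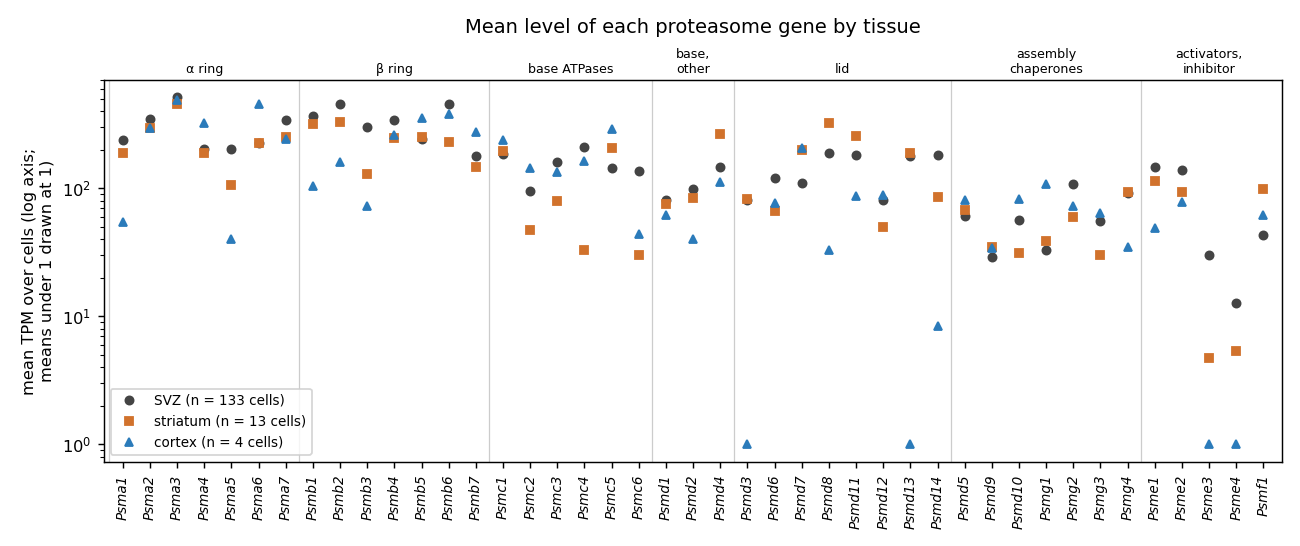
Mean TPM over cells (y axis, logarithmic; means under 1 TPM drawn at 1) of the 43 members with a role in the proteasome (x axis, by class) in SVZ (circles, 68 ogp and 65 ogp2 cells), striatum (squares, 13 cells) and cortex (triangles, 4 cells). In SVZ the core genes lie between 180 and 514 TPM and the chaperones between 29 and 107.8; in cortex Psmd3, Psmd13, Psme3 and Psme4 lie under 1 TPM.

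In the α ring, Psma3 had the highest level of all members. Its gene (ENSMUSG00000060073, chr12:70974621-70996347, plus strand, GENCODE on GRCm38) gave 0 to 2030 TPM in SVZ cells with a median of 474 and was at 1 TPM or more in 80.5% of them (interval 72.7 to 86.8%). In striatum it ranged from 1.59 to 955 TPM with a median of 395, and the 4 cortex cells had 317, 650, 663 and 340 TPM. Psma3 was above 1 TPM in every astrocyte, 13 of 13 and 4 of 4, and the ranges of the tissues overlap. The lowest mean of this ring was that of Psma4, with 203 TPM, and the smallest share of cells that of Psma5, with 52.6%.

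The catalytic genes of the β ring differed in level. Psmb6, the caspase-like site (ENSMUSG00000018286, chr11:70525367-70527858, plus strand), had a mean of 459 TPM in SVZ, the highest of its ring, with a median of 378 and a maximum of 1948. Psmb5, the chymotrypsin-like site (ENSMUSG00000022193, chr14:54614119-54618022, minus strand), had a mean of 245 TPM and a median of 234. Psmb7, the trypsin-like site (ENSMUSG00000026750, chr2:38588036-38644087, minus strand), had a mean of 180 TPM, the lowest of the ring, and a median of 156. The 4 cortex cells had 264, 564, 312 and 393 TPM of Psmb6, 252, 863, 0 and 298 TPM of Psmb5, and 0, 949, 0 and 160 TPM of Psmb7. So Psmb6 was listed in each cortex cell while the other catalytic genes were at 0 in some.

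Every constitutive proteasome needs all 3 catalytic subunits, yet 55 SVZ cells (41.4%, interval 32.9 to 50.2%) had all 3 genes at 1 TPM or more and 13 had none. In striatum 1 of 13 cells had all 3 (7.69%, interval 0.195 to 36.03%) and 9 had 2 of them; in cortex 2 of 4 cells had all 3. Of the 14 core genes, SVZ cells had 1 to 14 at 1 TPM or more, with a median of 10, striatum cells a median of 8 and cortex cells 9.5. Of all 31 core, base and lid genes, the median was 18 in SVZ, 18 in striatum and 16.5 in cortex. A gene listed at 0 in a cell is therefore read here as not listed in that library, not as missing from the cell. Over SVZ cells the number of these 31 genes followed the number of all genes at 1 TPM or more, with rho 0.78, both counted in the same libraries.

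**Figure D2:**
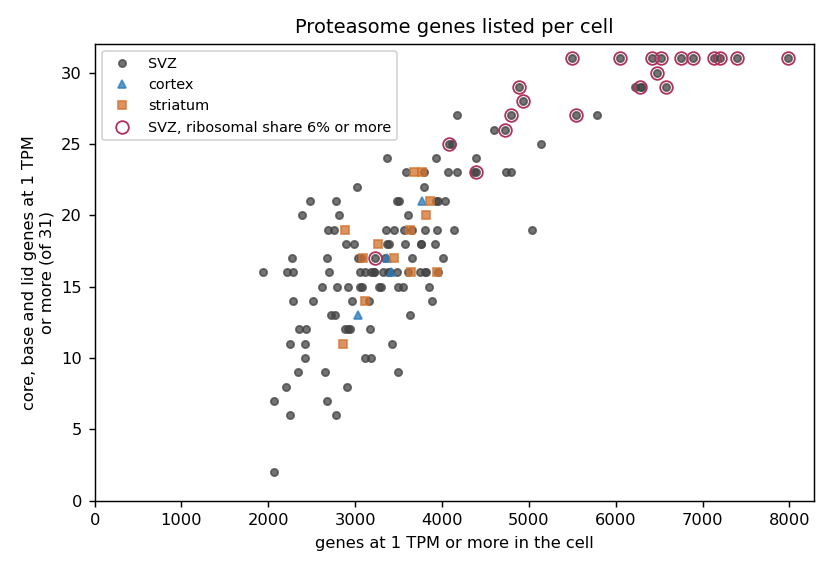
Each point is a cell: the number of all genes at 1 TPM or more (x axis) against the number of the 31 core, base and lid genes at 1 TPM or more (y axis), for SVZ, striatum and cortex cells, with rings around the 21 SVZ cells whose ribosomal protein share is 6% or more. The proteasome count rises with the gene count (rho 0.78 in SVZ), and 10 ringed cells hold all 31 genes.

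The base ATPases had means of 96.1 TPM (Psmc2) to 210 TPM (Psmc4) in SVZ, and its other subunits 81.8 TPM (Psmd1, the large scaffold), 98.4 TPM (Psmd2, its partner scaffold) and 147 TPM (Psmd4, a ubiquitin receptor). Psmc2 stood out by its shape: it was at 1 TPM or more in 71.4% of SVZ cells, the largest share of base and lid genes, with a median of 6.73 TPM against a mean of 96.1. In the lid, Psmd8 had the highest mean (190 TPM) and Psmd3 the lowest (81.3 TPM, 42.9% of cells). Psmd14 had a mean of 182 TPM but a median of 0.750, at 1 TPM or more in 49.6% of cells.

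Among the assembly chaperones, Psmg2, which pairs α subunits early in assembly, had the highest mean in SVZ (107.8 TPM, 41.4% of cells) and Psmd9, a base chaperone, the lowest (29 TPM, 34.6%). Among the caps, the paired activator subunits Psme1 and Psme2 had means of 146 and 139 TPM in SVZ, in 47.4% and 42.1% of cells. Psme3, a nuclear cap, had 29.97 TPM in 31.6% of cells, Psme4, the cap of the testis and of DNA repair, 12.6 TPM in 23.3%, and the inhibitor Psmf1 42.97 TPM in 24.8%. Psma8 was listed at 0 in all SVZ cells (upper limit of the interval 2.74%) and all 4 cortex cells, and at 84.8 TPM in 1 of 13 striatum cells. Psmb11 reached 1 TPM in 1 SVZ cell (1.15 TPM) and in no astrocyte.

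The second question was how these genes relate to the share of TPM in the 83 protein-coding genes of cytosolic ribosomal proteins, a measure that runs from 0.732 to 15.1% in SVZ cells (median 1.86%), 0.875 to 2.95% in striatum and 1.60 to 2.38% in cortex. SVZ cells were set in 3 ranges: under 3% (46 ogp and 55 ogp2 cells), 3 to 6% (11 cells) and 6% or more (21 cells). These are ranges of a score and not cell types; 5 cells lie within 10% of the lower limit and 4 within 10% of the upper one. In the cells at 6% or more, 40 of the 44 members compared below were higher, where 5071 of 9283 genes were. The 14 core genes took 0.387% of TPM on average under 3%, 0.521% at 3 to 6% and 0.675% at 6% or more, a ratio of 1.75 between the outer ranges, while the ribosomal share itself differed 5.78-fold by construction. The ratio was 1.70 for the base, 1.39 for the lid, 1.65 for the chaperones and 1.55 for the activators and inhibitor.

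**Figure D3:**
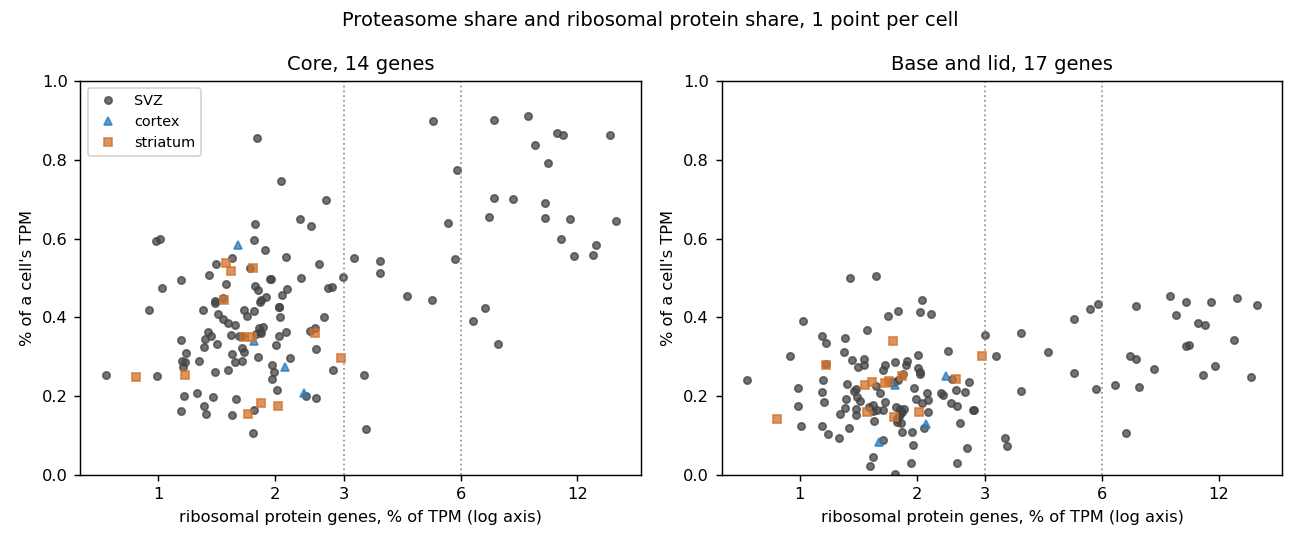
Share of each cell's TPM in the 14 core genes (left) and the 17 base and lid genes (right) against its share in ribosomal protein genes (x axis, logarithmic), 1 point per cell; dotted lines mark 3% and 6%. Core shares average 0.387% left of the lines and 0.675% right of them, and the astrocytes lie with the SVZ cells under 3%.

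Gene by gene, differences are given as log2 ratios of group means, with 1 TPM added to each mean, and only genes whose mean reached 10 TPM in either of the groups compared were used. Of the 44 members that reached this level, 40 were higher at 6% or more and 12 by at least 2-fold, while 1 was at least 2-fold lower. Of all 9283 genes, 5071 were higher, and the shares were 26.8% at least 2-fold higher and 23% at least 2-fold lower. So 12 of 44 is near the background. The median log2 difference was 0.73 for the members and 0.16 for all genes. The count depends on the setting: on means of log2(TPM + 1) over cells, which weigh detection more, 43 members and 58.1% of genes were at least 2-fold higher, with medians of 3.26 and 1.32. With groups scaled by the median ratio it was 7 members and 23.2% of genes, with ogp cells alone 22 members and 29.6%, and with ogp2 cells alone 7 members and 30% of genes. By class the medians were 0.79 for the core, 0.88 for the base, 0.39 for the lid, 0.51 for the chaperones and 0.30 for the activators and inhibitor. All 14 core genes and all 9 base genes had positive values, from 0.17 (Psmc4) to 1.42 (Psmd2).

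The catalytic genes had log2 differences of 0.53 (Psmb5), 0.77 (Psmb6) and 0.82 (Psmb7). Psma7 had the largest value of the core, 1.35, with a median over cells of 238 TPM under 3% and 595 TPM at 6% or more. Psmd3, a structural lid subunit, had a median over cells of 0.12 TPM (highest 492) under 3% and of 163 TPM (highest 361) at 6% or more, a log2 difference of 1.51. Psmg4, a chaperone of α ring assembly, had 0 TPM as its median under 3% and 171 TPM at 6% or more, a log2 difference of 1.60. For both genes the ranges of cells overlap, since some cells under 3% reach the highest values of all.

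A few members went the other way. Psmd8, a lid subunit, had a mean of 206 TPM under 3% and 130 TPM at 6% or more (log2 difference -0.66), although it was at 1 TPM or more in 53.5% of the former cells and 90.5% of the latter. Its highest value was 1175 TPM under 3% and 339 TPM at 6% or more, so the larger mean came with fewer cells at higher values. Psme4 had a mean of 14.9 TPM against 6.10 TPM (-1.16), the inhibitor Psmf1 42.1 against 35.3 TPM (-0.25), and the chaperone Psmg3 61.97 against 53.4 TPM (-0.21). Psme4 is the only member at least 2-fold lower, and on the mean of log2 values its difference is 0.47. Psme2 had the largest value of the caps, 1.22, against 0.30 for its partner Psme1. Psmc3ip, no proteasome subunit, had the largest value of all members, 4.38, at 1 TPM or more in 47.6% of cells at 6% or more and in 0.990% under 3%.

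Detection differed between the ranges as well. All 43 members with a role in the complex were at 1 TPM or more in a larger share of the cells at 6% or more, with a median share of 90.5% against 43.6%; over the 9283 genes, 84% were so, with medians of 52.4% against 22.8%. Genes of like level were nearer to the members: 1368 genes with 100 to 550 TPM in SVZ had medians of 90.5% against 60.4%, and the 29 members in that band 95.2% against 52.5%. Core genes were at 1 TPM or more in 95.2 to 100% of these 21 cells, and 18 of the 21 held all 14, against 1 cell under 3%. All 3 catalytic genes were listed in 19 of 21 cells (90.5%, interval 69.6 to 98.8%) against 29 cells under 3% (28.7%, interval 20.1 to 38.6%). The lowest shares at 6% or more were those of Psmd5, Psme4 and Psmf1, each 47.6%.

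Taking only the cells in which a gene was at 1 TPM or more, the ratio of levels differed by class. The mean level at 6% or more over that under 3% had a median ratio of 1.02 in the core, 0.994 in the base, 0.710 in the lid, 0.529 in the chaperones and 0.556 in the activators and inhibitor, against 0.477 over all genes and 3.66 in the ribosomal protein genes. The ratio was above 1 in 9 of 14 core genes and 4 of 9 base genes, and in 0 of 8 lid genes, 0 of 7 chaperones and 0 of 5 activator and inhibitor genes; over all genes it was above 1 in 13%. Psma3, for instance, had 635 TPM per listing cell under 3% and 641 TPM at 6% or more, and Psmb2 556 and 819 TPM, while Psmd8 had 385 and 144 TPM. The classes also differed in detection. Under 3% the median share of cells was 62.4% in the core and 43.6% in the base and the lid. It was 21.8% in the chaperones, 24.8% in the activators and inhibitor and 22.8% over all genes. Genes of like level were not set beside these ratios, so the part of level in the class differences was not tested.

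**Figure D4:**
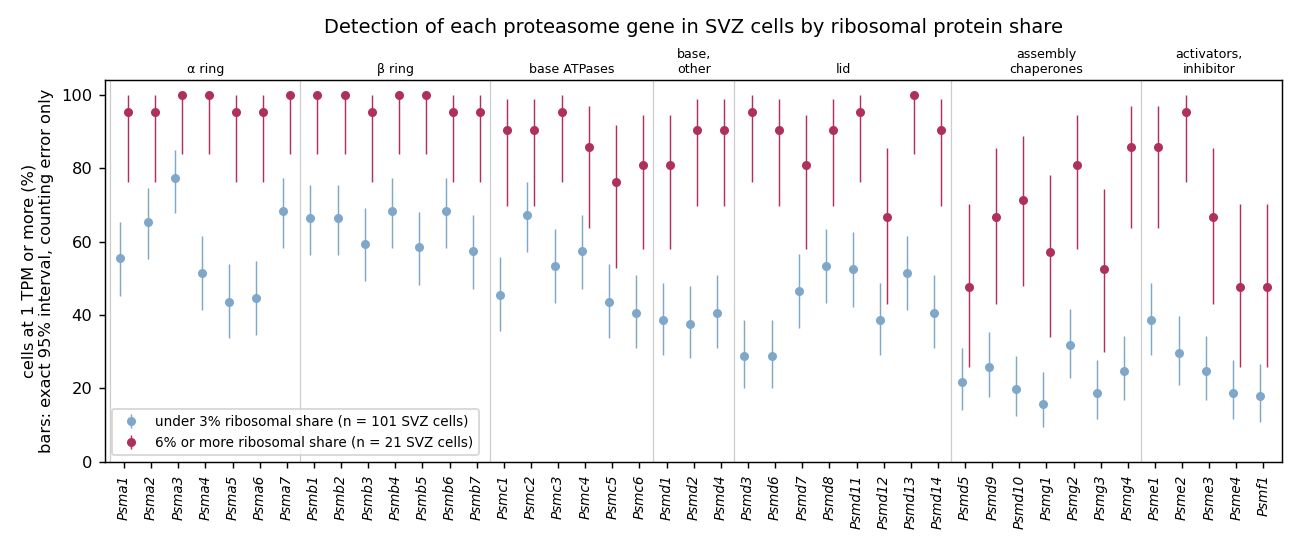
Share of SVZ cells at 1 TPM or more (y axis, %) for the 43 members (x axis, by class) in cells under 3% (light, 46 ogp and 55 ogp2 cells) and at 6% or more (dark, 21 cells) ribosomal protein share, with exact 95% intervals that cover counting error only. Every dark point lies above its light partner, and the core genes reach 95.2 to 100%.

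Other measures differed between these ranges too. The median number of genes at 1 TPM or more was 3217 under 3% and 6285 at 6% or more, with rho 0.63 between gene number and ribosomal share over the SVZ cells. The 6 mitosis markers summed to a mean of 0.382 TPM under 3% and 2121 TPM at 6% or more, where 9 of 21 cells held 3 of them, while the astrocyte and sort markers summed to a mean of 18154 and 3040 TPM. Neuroblast markers (3 or more) were held by 4 of the 21 cells and by none under 3%, and their summed mean was 111.6 against 5.78 TPM. Oligodendrocyte lineage markers (3 or more) were held by 4 of the 21 cells and by 2 under 3%, with median sums of 85.8 and 0.16 TPM. The part of cycling, of cell type and of gene number in the proteasome difference was not tested. Among cells with 2500 to 5500 genes (8 at 6% or more, 85 under 3%), the members' median was 0.52, with 0.07 for all genes, and 6 members were at least 2-fold lower and 11 higher, where 27% and 25.1% of 9125 genes were.

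The difference was larger in the ogp series (15 cells at 6% or more, 46 under 3%) than in ogp2 (6 and 55 cells), with members' medians of 0.99 and 0.32; the gap between the series was not tested. The core medians were 1.05 and 0.30, the base 1.03 and 0.56, and the lid 0.67 and 0.22. The chaperones had a median of 1.03 in ogp and -0.52 in ogp2, and the activators and inhibitor -0.04 and 0.89. The medians of all genes were 0.11 and 0.15. The sign of both class medians thus differed between the series. They rest on 7 and 5 genes and, in ogp2, on 6 cells at 6% or more.

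Across cells, the share of TPM in the 31 core, base and lid genes and that in ribosomal protein genes had a Spearman's rho of 0.48 over SVZ cells (0.53 for the core, 0.27 for the base and lid). Both shares come from the same library and the same total; outside ribosomal protein genes the value was 0.52, and with ranks of gene number regressed out it was 0.32. By series it was 0.71 in ogp (68 cells) and 0.22 in ogp2 (65 cells), and it was 0.16 among the cells under 3%. Within that range the core had a rho of 0.26 and the base and lid had -0.08. Within the 21 cells at 6% or more the core had 0.02 and the base and lid had 0.36. In the 11 cells at 3 to 6% the core had 0.57 and the base and lid 0.55, and in the 13 striatum cells -0.15 and 0.38. Single members had rho values of 0.02 (Psmd8) to 0.45 (Psmd3), all 44 above 0, with a median of 0.23, against a median of 0.15 over 8164 genes outside the ribosomal proteins, of which 77.4% were above 0. The core's share and that of the base and lid had a rho of 0.43 with each other in SVZ.

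In striatum astrocytes most proteasome genes lay slightly below SVZ cells, as genes did in general, and a few of the base and of the caps lay far below. Of 44 members that reached 10 TPM, 28 were lower, where 59.9% of 9080 genes were, and 8 were at least 2-fold lower, where 28.3% were. At least 2-fold higher were 2, where 12.3% of genes were. The members' median was -0.26 and that of all genes -0.26. The class medians were -0.30 for the core, -0.23 for the base, 0.04 for the lid, 0.04 for the chaperones and -0.56 for the activators and inhibitor, and the ATPases alone had -1.01. The core took 0.338% of TPM in striatum and 0.443% in SVZ, and the base and lid 0.228% and 0.239%.

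Psmc4, an ATPase of the base (ENSMUSG00000030603, chr7:28041707-28050101, minus strand), was the lowest. It was at 1 TPM or more in 2 of 13 striatum cells (15.4%, interval 1.92 to 45.4%), with 96.9 and 335 TPM, and in 63.9% of SVZ cells (interval 55.1 to 72.1%), with a median of 181 and a maximum of 1280 TPM. The log2 difference was -2.63, and with the 11 cells of the label OGStr alone it was -4.43. Psmc6, another ATPase (chr14:45329788-45349705, plus strand), had 19.0, 64.2, 122.8 and 184 TPM in 4 striatum cells and was under 1 TPM in the other 9, against 47.4% of SVZ cells listed and a maximum of 1224 TPM (log2 difference -2.14). Psmc2, Psmc3, Psmb3 and Psmd14, and the cap Psme4, made up the rest of those at least 2-fold lower, down to -1.20 in Psmb3.

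The other ATPases Psmc1 and Psmc5 did not share this: their log2 differences were 0.09 and 0.52, with 10 and 8 of 13 striatum cells at 1 TPM or more. With the OGStr cells alone they were -0.18 and 0.09. Psmc5 had 655 and 359 TPM in the 2 cells of the label OStr, against a mean of 154 TPM in OGStr. Psme3 had 3.02, 12.2 and 45.7 TPM in 3 striatum cells and less than 1 TPM in the other 10, a log2 difference of -2.45. At the other end, Psmf1 was at 1 TPM or more in 7 of 13 striatum cells, between 76.7 and 397 TPM, and in 24.8% of SVZ cells; its mean was 99.8 TPM in striatum and 42.97 TPM in SVZ. The other member at least 2-fold higher was Psmc3ip (1.11), which is no subunit and was at 1 TPM or more in 3 of 13 striatum cells. Psmd7, Psmd4 and Psmd8 had 0.87, 0.84 and 0.78; Psmd8 was at 1 TPM or more in 11 of 13 cells, with a median of 301 TPM against 99.9 TPM in SVZ. For every gene named here the ranges of the tissues overlap.

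Striatum cells have a ribosomal share like the SVZ cells under 3% (mean 1.75% and 1.74%). Against those cells alone the members' median was -0.06 and that of all genes -0.17, and the core differed 0.875-fold in share of TPM. Psmc4, Psmc6 and Psme3 had -2.55, -1.92 and -2.32, and Psmf1 1.22. Against these cells 6 of 44 members were at least 2-fold lower in striatum, where 24.5% of 8831 genes were. Of the 8 members at least 2-fold lower against all SVZ cells, 5 were among them. Both comparisons use the same striatum cells and share the SVZ cells under 3%, so this overlap is partly built in. On the mean over cells of log2(TPM + 1) in striatum against all SVZ cells, 13 of 44 members were at least 2-fold lower and 6 higher. Of 9080 genes, 15% were so lower and 12.9% higher. Psme4 turned from -1.09 to 0.14.

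**Figure D5:**
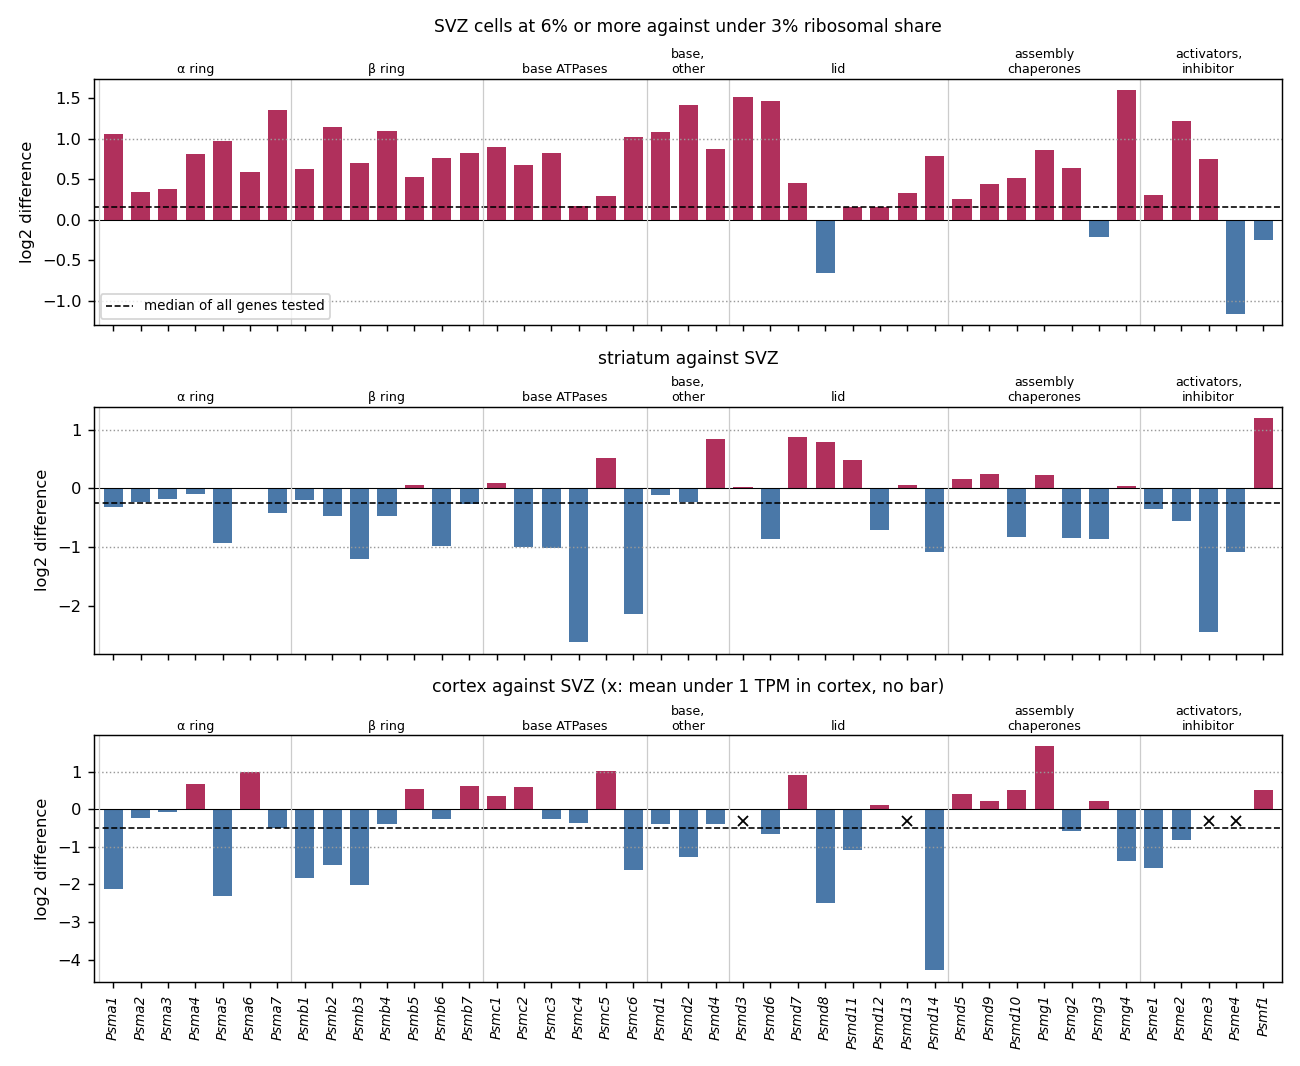
Log2 difference of (mean TPM + 1) for the 43 members (x axis, by class) in SVZ cells at 6% or more against under 3% ribosomal share (top), striatum against SVZ (middle) and cortex against SVZ (bottom); the dashed line is the median of all genes and dotted lines mark 2-fold. Top bars are mostly above the dashed line at 0.16, Psmc4 (-2.63), Psme3 (-2.45) and Psmc6 (-2.14) are the lowest in the middle, and crosses mark Psmd3, Psmd13, Psme3 and Psme4, whose cortex means are under 1 TPM.

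The cortex gave 4 cells, and its values are the least secure. The lid was low on their mean: it took 0.0501% of TPM, a ratio of 0.443 to SVZ, while the base had a ratio of 0.978 and the core 0.794. The lid's share ran from 0.0033 to 0.0886% over the 4 cells, inside the SVZ range of 0 to 0.331% (median 0.110%). At least 2-fold lower than SVZ were 5 of 8 lid genes, where 43.4% of 8940 genes were. The cortex cells also had oligodendrocyte lineage markers at a median sum of 304.6 TPM (0.25 in SVZ, 0 in striatum) and neuroblast markers at 52.8 TPM (0 in both), with 4 of 6 markers of each list under 1 TPM in every cortex cell and 0 cells with 3 of them; their part in the cortex values was not tested. Psmd13, a lid subunit (ENSMUSG00000025487, chr7:140881968-140898643, plus strand), was listed at 0 in all 4 cortex cells (upper limit of the interval 60.2%), against 59.4% of SVZ cells and 10 of 13 striatum cells at 1 TPM or more. Psmd3 had 0, 0.34, 0 and 0 TPM, and Psmd14 0, 0, 0 and 33.4 TPM. Psmd8 had 16.4, 0, 115.1 and 0 TPM (log2 difference -2.49). Psmd7, in contrast, had 374, 0, 452 and 0 TPM (0.91), so the lid genes did not move as a block.

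Of 44 members at 10 TPM in cortex or SVZ, 16 were at least 2-fold lower in cortex, where 43.4% of 8940 genes were, and 4 at least 2-fold higher, where 20.7% were. The members' median was -0.39 and that of all genes -0.49. Of the 43 genes with a role, 4 were under 1 TPM in every cortex cell, 11 at 1 TPM or more in 1 of them and 4 in all of them. Psmg1, a chaperone of α ring assembly, had 0, 124.9, 306 and 0 TPM (log2 difference 1.68), and 0.33 without cortex cell 3. Psmc5 had 629, 0, 179 and 365 TPM (1.01), and 0.32 without cortex cell 1. Psmc3ip had 278 TPM in cortex cell 2 and 0 in the rest, so its value of 2.52 becomes -3.62 without that cell. Psme3 was listed at 0 in all 4 cells. Without cell 2 or without cell 4, 20 members were at least 2-fold lower, where 48.3% and 48.2% of genes were.

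Between the astrocytes of striatum and cortex, the members were split: of 42 that reached 10 TPM, 13 were at least 2-fold higher in striatum, where 38.3% of 8276 genes were, and 6 at least 2-fold lower, where 28.9% were. The median was -0.05, and 0.10 for all genes. The lid genes Psmd8 (3.28), Psmd13 and Psmd3 were higher in striatum, where they were at 1 TPM or more in 11, 10 and 5 of 13 cells, and 5 of 8 lid genes were at least 2-fold higher. Psmc4 (-2.27), Psmc2 (-1.59) and Psmg1 (-1.45) were lower, and all 6 ATPases had negative values, but for 5 of them the sign rests on 1 cortex cell. Psmc1 becomes 4.22 without cell 3, Psmc3 0.09 without cell 4, Psmc5 0.20 without cell 1 and Psmc6 4.95 without cell 1. Psmc4 becomes -1.22 without cell 1, and Psmg1 -0.10 without cell 3. The value of Psmc2 rests on cortex cell 4 with 560 TPM beside 5.58, 11.7 and 0.84 TPM, and becomes 2.78 without it. Scaling both groups by the median ratio over genes at 10 TPM in both shifted cortex by 0.34 against SVZ and striatum by -0.40 against cortex. For striatum against cortex it gave a median of 0.34, and 0.53 for all genes. At least 2-fold higher were 15 members and lower 4, where 43% and 22.1% of 8146 genes were. The count of members below and above 0 turned from 23 and 19 to 15 and 27.

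Between the name series of SVZ cells the mean levels of the proteasome genes were near equal, while their detection was lower in ogp2. Of 44 members, 1 was at least 2-fold lower in ogp2 than in ogp, where 14.4% of 9063 genes were, and 0 were at least 2-fold higher, where 7.01% were. That gene was Psmc3ip (-1.91), which is no subunit. The median was -0.05, and -0.09 for all genes. All 7 β ring genes were below 0, down to -0.52 (Psmb3), where 55% of all genes were below 0. The ends of the range were Psmg4 (-0.94), Psmd7 (-0.84) and Psme1 (-0.76) on the lower side and Psmg3 (0.88), Psmd10 (0.67) and Psma6 (0.54) on the higher one. On means of log2 values the median was -0.41, and -0.35 for all genes, with 7 members and 12.8% of genes at least 2-fold lower. The median share of cells listing a gene, in ogp and ogp2, was 72.1% and 69.2% for the core, 55.9% and 47.7% for the base, and 55.1% and 45.4% for the lid. The cells had medians of 3756 and 3073 genes at 1 TPM or more. Among cells under 3% ribosomal share the median was 0.26, and -0.03 for all genes, and 2 members were at least 2-fold higher in ogp2, where 11.8% of genes were. What the series names stand for is not said in the labels, so the series cannot be told apart from any batch that follows it.

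Other genes of the pathway were read from fixed lists. Of 10 other parts and partners, 4 were at least 2-fold higher and 2 lower in SVZ cells at 6% or more, near the 26.8% and 23% of all genes. The small lid subunit Sem1 had means of 40.9 TPM under 3% and 167 TPM at 6% or more (log2 difference 2.01), Pomp, the maturation factor of the core, 153 and 329 TPM (1.10), and Usp14, a deubiquitinase bound to the base, 66.6 and 145 TPM (1.11). Fbxo7, a ubiquitin ligase subunit that binds Psmf1, had 76.9 and 10.3 TPM (-2.78), and Ecpas, which tethers proteasomes, 29.3 and 13.6 TPM (-1.05). Of 11 shuttle and extraction factors that reached 10 TPM, 4 were at least 2-fold higher and 0 lower; Vcp, the ATPase that pulls ubiquitinated proteins from complexes, had 168 and 384 TPM (1.19).

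Of 6 regulators that reached 10 TPM, 2 were at least 2-fold higher and 1 lower, also near those shares. Among the regulators, Nfe2l1 had means of 9.85 TPM under 3% and 24.8 TPM at 6% or more (1.25), and Nfe2l2 had 115.7 and 95.1 TPM (-0.28). Nfe2l1 was listed at 0 in all 13 striatum cells. In striatum against SVZ, 8 of the 10 partners were lower, 2 of them at least 2-fold, where 59.9% of all genes were lower and 28.3% at least 2-fold lower. Psmb8, Psmb9 and Psmb10, which replace the catalytic subunits in the immunoproteasome, had means of 32.8, 18.1 and 47.1 TPM in SVZ, in 13.5%, 15.04% and 38.3% of cells, and log2 differences of -2.08, -1.12 and -0.26 at 6% or more. The share of cells at 1 TPM or more went from 13.9% under 3% to 9.52% at 6% or more for Psmb8. It went from 13.9% to 28.6% for Psmb9 and from 34.7% to 52.4% for Psmb10. Psmb9 has 0.66 on the mean of log2 values. In cortex Psmb8 and Psmb9 were listed at 0 in all 4 cells, and in striatum they were at 1 TPM or more in 3 and 1 of 13 cells.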

How the data were processed

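Single cells were profiled with Smart-seq2 in SVZ (68 ogp and 65 ogp2), striatum (13) and cortex (4); 18 population libraries were not analysed here. The deposited values are TPM, scaled by the authors to transcript length and to 1000000 a cell, as read from their range and column sums. STAR 2.4.0g1, RSEM 1.2.18 and mm10 are named, without their roles, per the submitters' processing notes; the gene annotation is not given in the sources used here. Depth is unknown, so precision from read counts cannot be given. All cells were brought to the same sum, which mattered for 5 SVZ columns that hold part of it, and of rows with the same symbol the most abundant was used. Positions come from GENCODE M21 (GRCm38).

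From these, python 3 scripts (numpy, pandas, scipy) computed group means, shares of cells at 1 TPM or more, log2 differences with a pseudocount of 1 TPM for genes whose mean was 10 TPM or more in either of the groups, and rank correlations. The code for log2 differences was checked on the SVZ values with known fold changes planted in them. The other steps were not checked in this way. A difference of at least 2-fold is called. Cells are not replicates, so no test was made. No pair of SVZ columns held identical values. Doublets were not called.

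The members, lists and ranges were chosen with earlier results of these data known. Named in full are Psmb5, Psmb6, Psmb7, the caps and Psmf1, Psma8, Psmb11, the members with the highest and lowest SVZ mean of each class, and the 3 highest and 3 lowest differences of each comparison among members with 20 TPM or more; others named were chosen after their values were seen. Alternatives covered the pseudocount, filter, scaling, scale of averaging, subsets of cells and detection limit. A median was taken to move when it shifted by more than 1.5-fold, and a correlation when it shifted by more than 0.2. A further list of pathway genes is not reported here.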

Additional observations from a re-analysis of the deposited data

Results flagged for a closer look

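Among the 4 cortex cells, 14 of 34 genes looked at had 1 cell whose value stood far above the other 3, by Dixon's ratio of the gap to the whole range; of the 7 per-cell measures none was added. Chance puts about 1 in 20 groups of spread-out values past this limit, and it does not hold for genes listed at 0 in most cells, where any listed cell stands apart. The highest values were 949.33 TPM of Psmb7, 559.75 TPM of Psmc2, 328.79 TPM of Psmd10, 313.02 TPM of Psme2, 278.38 TPM of Psmc3ip, 270.31 TPM of Psmg2, 259.39 TPM of Psmg3, 249.24 TPM of Psmd1 and 248.8 TPM of Psmf1. Lower ones were 175.54 TPM of Psmc6, 138.74 TPM of Psmg4, 136.83 TPM of Psmd9, 115.13 TPM of Psmd8 and 36.33 TPM of the immunoproteasome gene Psmb10.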

How the results depend on the processing

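Of 179 recomputed main values and counts, 34 moved and 145 stayed within the limits, 6 of these with the other sign. The striatum against cortex median of -0.05 had the other sign in 5: 0.01 with no filter, 0.13 on log2 means, 0.34 with median scaling, and 0.38 and 0.18 without cortex cells 2 and 4. The ogp2 against ogp median of -0.05 became 0.26 under 3%. For the counts that follow, brackets hold the share of all tested genes under the same setting. In striatum against SVZ, 8 members at least 2-fold lower (28.3%) became 5 with a pseudocount of 10 TPM (20.4%) and with scaling by the median ratio (26%). They became 5 also with SVZ cells of 2500 to 5500 genes (26.2%), and 13 on means of log2 values (15%). The 2 higher (12.3%) became 1 with the pseudocount (6.5%), without ribosomal protein genes (12%) or with ogp cells (13.3%). They became 4 with SVZ cells under 3% (14.2%) or of 2500 to 5500 genes (12.5%), and 6 on log2 means (12.9%). In cortex against SVZ, the 4 higher (20.7%) became 2 with the pseudocount (16.4%), without ribosomal protein genes (20.3%) or with median scaling (14.6%), and 9 on log2 means (26.4%). In striatum against cortex, the 6 lower (28.9%) became 11 on log2 means (31.3%). In ogp2 against ogp, the 1 lower (14.4%) became 0 with the pseudocount (5.86%) or with 10 TPM asked of both groups (6.22%). It became 2 without the partial columns (14.7%) and 7 on log2 means (12.8%). The 0 higher (7.01%) became 2 under 3% (11.8%). Between the ribosomal ranges, the median of 0.73 became 3.26 on log2 means, where that of all genes went from 0.16 to 1.32. The 1 lower (23%) became 0 with the pseudocount (16.2%), 10 TPM in both (16%), log2 means (8.47%) or limits of 2.5% and 8% (25.4%). It became 4 with ogp2 cells (27.2%) and 6 with 2500 to 5500 genes (27%). The 12 higher (26.8%) became 43 on log2 means (58.1%), 7 with median scaling (23.2%), 22 with ogp (29.6%) and 7 with ogp2 cells (30%). The correlation of 0.48 became 0.715 in ogp, 0.215 in ogp2 and 0.163 under 3%. On log2 means, Psme4 turned to 0.14 in striatum against SVZ and to 0.47 between the ranges, Psmb9 to 0.66 between the ranges and Psme1 to -0.77 in striatum against cortex. The cause was not tested in any of these; values under settings with log2 means weigh cells at 0 more by construction.

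Leaving out each cortex cell gave medians of -0.79 to -0.38 against SVZ. At least 2-fold lower were 16 to 20 members (48.2 to 49.5% of all genes) and higher 3 to 5 (20.6 to 21.7%). For striatum against cortex the medians were -0.12 to 0.38, with 6 to 9 members lower (27.8 to 28.5% of all genes) and 12 to 17 higher (43 to 44.4%). Psmc3ip ranged from -3.62 to 2.93 in cortex against SVZ. In striatum against cortex, Psmc2 ranged from -1.998 to 2.78, Psmc3ip from -1.82 to 4.73, Psmd10 from -1.77 to 5.02 and Psmg3 from -1.49 to 4.96. The ranges by ogp2 cells or by 2500 to 5500 genes between ribosomal ranges, and the latter for striatum, were chosen after seeing the data. No paired analysis was possible because the cells are not tied to animals and their numbers only name them. TPM keeps no read counts, so depth limits cannot be given.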
